A study of Homo sapiens with 6 samples.

Results

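The TRIM genes encode proteins named for a tripartite motif of RING finger, B-boxes and coiled coil. They were taken as every gene whose symbol on the platform is TRIM followed by a number, with or without a further letter. This gave 60 genes of the 14812 genes that the platform's annotation names. Their RNA had been read on Affymetrix arrays in LS180, a human cell line from a colorectal adenocarcinoma. An siRNA had been given against CTNNB1, the gene of beta-catenin, against the transcription factor gene MYC, or against MYU, a long non-coding RNA whose symbol on the platform is VPS9D1-AS1. The controls had received a control siRNA. Each knockdown had 1 array and 1 control array named for it, which makes 6 arrays in 3 pairs. No further genotype, time or dose is given in the labels, and the treatment tag of the CTNNB1 array names CTNNB2 while its title gives CTNNB1.

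The tripartite motif makes most of these proteins ubiquitin ligases: the RING finger binds a ubiquitin conjugating enzyme (E2), while the coiled coil joins the proteins into dimers and the end of the chain, which differs between classes, chooses the substrate. Many TRIM proteins act in innate immunity, by marking sensors of viral nucleic acids and their adaptors. Others regulate chromatin, the cytoskeleton or the cell cycle. In the gut, TRIM31 and TRIM40 are known as genes of the epithelium. Among the 60 genes, TRIM14, TRIM16, TRIM29, TRIM44 and TRIM66 encode proteins without a RING finger, so this account of RING ligases covers the other 55 at most.

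The deposited values are log2 expression values that had been centred within each pair, so the values of the siRNA array and of its control array mirror each other and only their difference carries information. Every value below is that difference, siRNA array minus its control array, with a logarithm to base 2 assumed, and a gene with several probe sets has their mean. Levels are not held, so whether a gene is expressed in these cells could not be read, nor could the colon origin be checked on the levels of its markers. With 1 array on either side there is no replicate check and no p-value, and "higher" and "lower" describe these arrays. Counts use 2-fold and 1.5-fold, which are 1 and 0.58 on the log2 scale. As a yardstick of noise, the 85 genes of keratin-associated proteins, which belong to the hair shaft, had standard deviations of 0.13 with CTNNB1 siRNA, 0.10 with MYC siRNA and 0.10 with MYU siRNA. Such genes tell nothing of the noise at high expression. Of the targeted transcripts, MYC had differences of -2.38 with CTNNB1 siRNA, -1.18 with MYC siRNA and 0.04 with MYU siRNA. VPS9D1-AS1 had -0.53, -0.24 and -0.50 in the same order. Its value with MYU siRNA was within 1.5-fold and no lower than with CTNNB1 siRNA, so it is a weak check of the MYU knockdown. CTNNB1 is the symbol of no listed probe set, and its knockdown could not be checked directly.

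The promoters of the TRIM genes that stood out are shown first, because they let the reader compare TRIM31 with the other high genes and with a neighbour that was not high. Each is the run of 250 bases before the gene's start, from RefSeq on GRCh38.p14. Capitals mark matches to 3 searched motifs on either strand: CACGTG, the E-box that MYC can bind; CTTTGAT, the core that TCF factors of the Wnt pathway can bind; and GAAA followed after any 2 bases by GAAA, the core of the interferon response element.
TRIM31, chr6:30113091-30113340, minus strand: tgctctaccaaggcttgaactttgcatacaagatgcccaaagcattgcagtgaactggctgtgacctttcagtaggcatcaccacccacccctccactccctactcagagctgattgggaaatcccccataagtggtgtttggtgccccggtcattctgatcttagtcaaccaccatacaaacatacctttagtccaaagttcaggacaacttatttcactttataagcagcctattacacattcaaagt
TRIM15, chr6:30163296-30163545, plus strand: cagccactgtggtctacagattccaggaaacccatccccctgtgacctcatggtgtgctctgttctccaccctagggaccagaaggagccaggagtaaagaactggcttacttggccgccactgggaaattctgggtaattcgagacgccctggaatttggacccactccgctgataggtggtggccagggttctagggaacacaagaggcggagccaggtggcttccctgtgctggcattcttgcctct
TRIM38, chr6:25962552-25962801, plus strand: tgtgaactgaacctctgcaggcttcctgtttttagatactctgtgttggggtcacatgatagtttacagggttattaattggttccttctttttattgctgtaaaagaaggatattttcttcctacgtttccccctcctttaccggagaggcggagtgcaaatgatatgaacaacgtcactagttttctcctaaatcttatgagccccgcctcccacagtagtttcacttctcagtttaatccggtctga
TRIM25, chr17:56914050-56914299, minus strand: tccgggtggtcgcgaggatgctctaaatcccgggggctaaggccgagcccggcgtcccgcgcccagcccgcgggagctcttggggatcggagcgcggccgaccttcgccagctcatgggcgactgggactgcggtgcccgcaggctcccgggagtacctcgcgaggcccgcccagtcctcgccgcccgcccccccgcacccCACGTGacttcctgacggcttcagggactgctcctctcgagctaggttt
TRIM26, chr6:30213407-30213656, minus strand: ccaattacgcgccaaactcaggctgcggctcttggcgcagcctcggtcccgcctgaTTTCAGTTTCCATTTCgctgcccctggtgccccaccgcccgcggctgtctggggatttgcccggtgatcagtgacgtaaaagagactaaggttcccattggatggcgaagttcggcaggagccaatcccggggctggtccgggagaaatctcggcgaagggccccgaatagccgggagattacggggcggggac
The windows of TRIM31, TRIM15 and TRIM38 hold none of the 3 motifs. That of TRIM25 holds 1 E-box, 49 bases before the start, and that of TRIM26 a pair of overlapping interferon motifs. Absence says only that these letters are not in these windows.

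TRIM31 encodes a RING ligase with no known domain after the coiled coil, which is known to modify the antiviral adaptor MAVS. Its centred log2 values were 0.57 in the CTNNB1 siRNA array and -0.57 in its control, 0.91 in the MYC siRNA array and -0.91 in its control, and 0.08 in the MYU siRNA array and -0.08 in its control. The differences were therefore 1.14, 1.81 and 0.15. TRIM31 was higher in the siRNA array of the CTNNB1 and MYC pairs by 2.20-fold and 3.52-fold, and in the MYU pair its difference was within 1.5-fold. It was the highest TRIM gene of the CTNNB1 and MYC pairs, and it took place 8 of 60 in the MYU pair.

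How far TRIM31 stood from its family differed between the pairs. In the CTNNB1 pair TRIM15, at 1.11, lay 0.03 below it, less than the standard deviation of 0.10 between the 5 probe sets of TRIM31. In the MYC pair the next TRIM gene was TRIM38 at 0.97, which is 0.84 below TRIM31 and rests on 1 probe set. The probe set standard deviation of TRIM31 was 0.04 in that pair. These spreads come from the same RNA and give no error for a difference between 2 genes. Among all 14812 genes TRIM31 took place 308 from the top with CTNNB1 siRNA, place 3 with MYC siRNA and place 2088 with MYU siRNA. The other 59 TRIM genes had medians of -0.03, 0.01 and 0.00. The TRIM31 value was thus close to those of several relatives with CTNNB1 siRNA. With MYC siRNA it was the highest, followed by TRIM38 at 0.97 and TRIM52 at 0.75. TRIM31 was picked with its high values known, so its top place is no independent result.

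**Figure D1:**
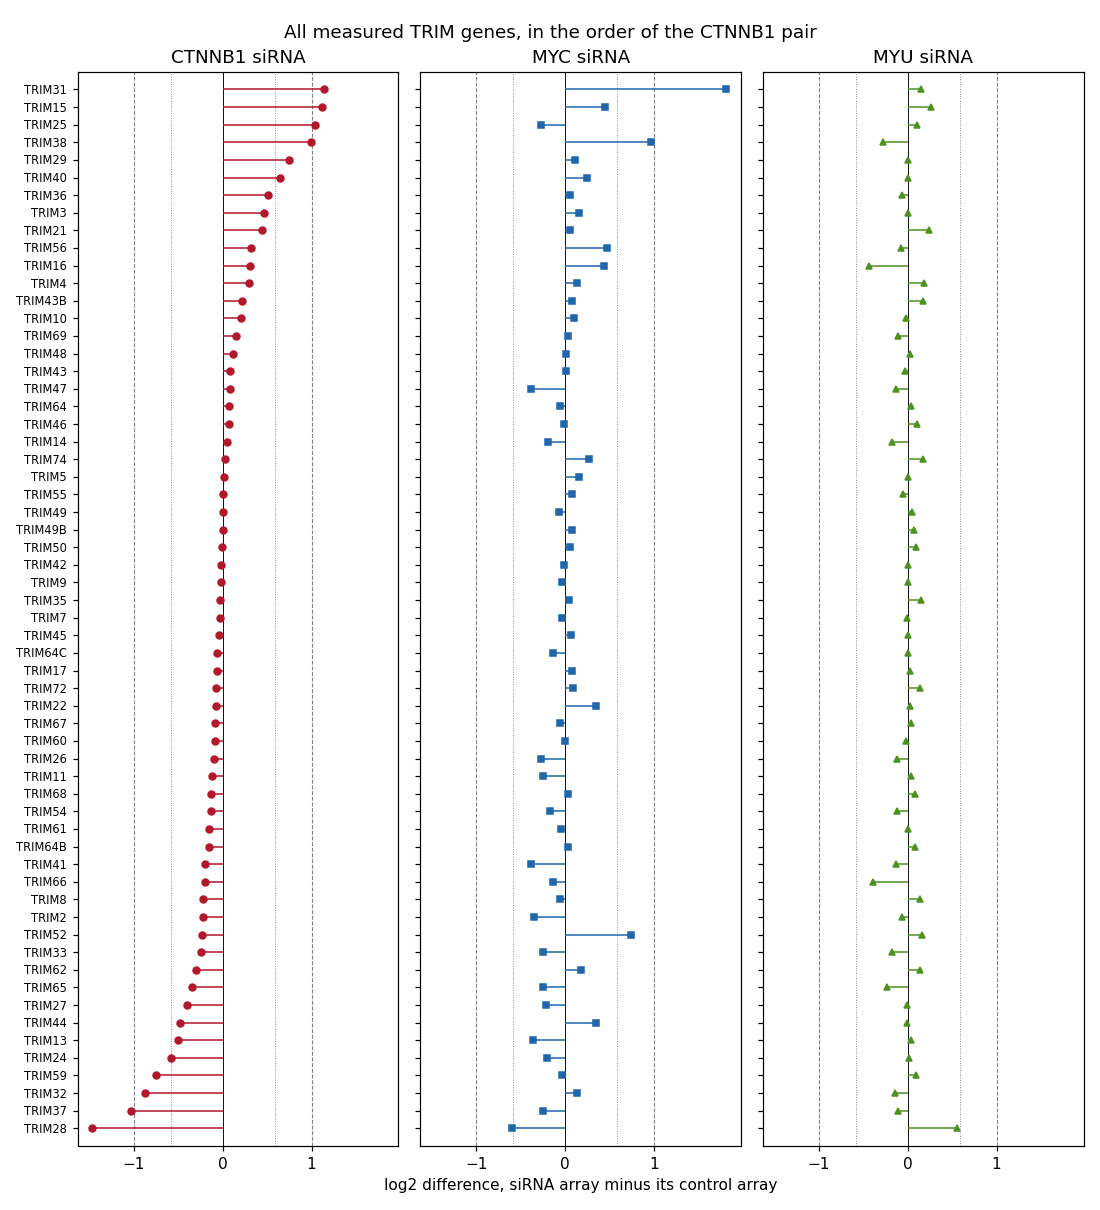
Log2 difference, siRNA array minus its control array, of the 60 TRIM genes in the CTNNB1, MYC and MYU pairs, with 1 point per gene, ordered by the CTNNB1 pair. Dashed lines mark 2-fold and dotted lines 1.5-fold; TRIM31 stands at 1.14, 1.81 and 0.15, and no TRIM gene passes 1.5-fold in the MYU pair.

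The probe sets of TRIM31 lay close together. They spanned 1.06 to 1.25 in the CTNNB1 pair, 1.75 to 1.86 in the MYC pair and 0.13 to 0.17 in the MYU pair. TRIM15, TRIM40, TRIM10 and TRIM27 had 8 probe sets each, and the other 55 TRIM genes had 1, so for those no such spread exists. The probe sets of TRIM15 spanned 1.01 to 1.17, 0.30 to 0.49 and 0.25 to 0.28 in the same order of pairs. Those of TRIM40 spanned 0.52 to 0.79 with CTNNB1 siRNA, on both sides of 1.5-fold, and those of TRIM27 -0.66 to -0.26. Probe sets of 1 gene were read from the same RNA and may share probes, so their spread is no replicate error. The gene table also places an antisense RNA, TRIM31-AS1, over TRIM31, and whether the probes read 1 strand only is not given in the sources used here.

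**Figure D2:**
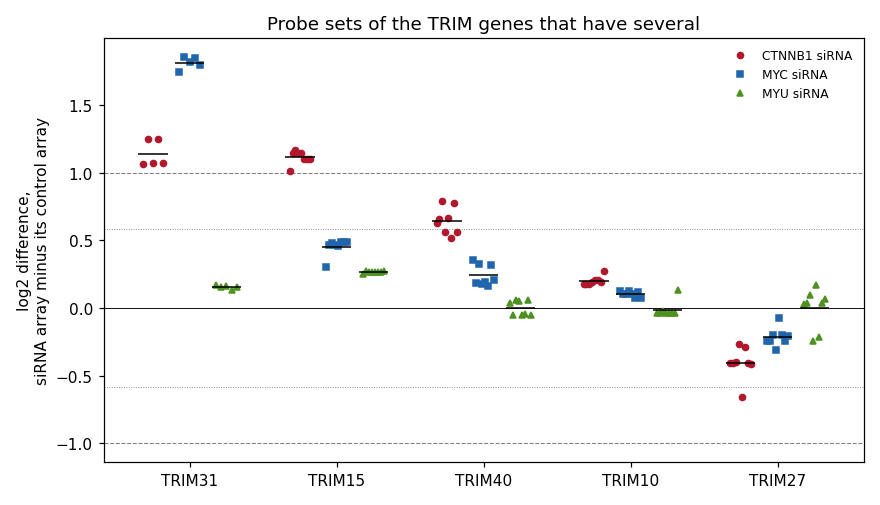
Log2 difference, siRNA array minus its control array, of each probe set of the 5 TRIM genes that have several, by pair, with a bar at the gene's mean. The TRIM31 probe sets span 1.06 to 1.25 with CTNNB1 siRNA and 1.75 to 1.86 with MYC siRNA. Probe sets of 1 gene were read from the same RNA and are no replicates.

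In the CTNNB1 pair 3 of 60 TRIM genes were at least 2-fold higher, against 2.80% of all genes, and 2 were at least 2-fold lower, against 4.14%. At 1.5-fold 6 were higher, against 6.44% of all genes, and 4 were lower, against 9.80%. In all, 16.7% of TRIM genes and 16.2% of all genes were 1.5-fold apart, so the family as a whole lay at the background. Its median was -0.03, against 0.00 for all genes, and its standard deviation was 0.47, against 0.51.

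The genes that were high in that pair came from several classes of the family. TRIM25, whose protein activates the RNA sensor RIG-I, was 2.05-fold higher (1.04), and TRIM15, a gene of the MHC region, 2.16-fold (1.11). TRIM38, a brake on inflammatory signalling, lay just short of 2-fold at 0.99. TRIM29, which lacks a RING finger and is expressed in many epithelia, had a value of 0.75. TRIM40, a gut gene linked to restraint of NF-kappaB, had 0.64, and 0.52 at its probe set closest to 0, which is within 1.5-fold. Below these, TRIM36 had 0.51, TRIM3 0.46 and TRIM21, an intracellular receptor for antibodies, 0.44, all within 1.5-fold.

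Among the low genes of the CTNNB1 pair were a corepressor and a centrosomal ligase. TRIM28, the corepressor that KRAB zinc finger proteins bring to chromatin, was 2.76-fold lower (-1.47). TRIM37, which acts at centrosomes and peroxisomes, was 2.05-fold lower (-1.03). TRIM32, a ligase with NHL repeats known from muscle disease, stood at -0.88, and TRIM59, a membrane-anchored ligase, at -0.75. TRIM24, a coregulator of nuclear receptors, had -0.58, just within 1.5-fold, and -0.59, just past it, when every array was centred on its median. Markers moved in the same pair: of 8 measured colon epithelium markers 5 were at least 1.5-fold higher, against 6.44% of all genes. These were KRT20 at 4.39, CEACAM5 at 1.11, VIL1 at 1.06, EPCAM at 0.62 and KRT18 at 0.62, while CDX1 had 0.30, KRT8 0.08 and CDX2, an intestinal transcription factor, -0.42. Of 3 measured fibroblast markers LUM had 2.78, DCN 0.01 and THY1 -0.04, and of 3 leukocyte markers CD68 had 2.65, CD14 -0.03 and LYZ -0.23. The 1 muscle marker measured, DES, had 0.17. With MYC siRNA 1 of the 8 colon markers was 1.5-fold apart, KRT20 at 1.16, against 5.79% of all genes. With MYU siRNA it was again KRT20 alone, at -0.73, against 1.88% of all genes. The leukocyte markers LYZ, CD68 and CD14 had 0.74, 0.48 and 0.06 with MYU siRNA. In RNA from a whole culture, a change in the share of cells of a kind and a change in RNA per cell cannot be told apart, and the part of such shifts in the TRIM values was not tested.

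In the MYC pair TRIM31 was the 1 TRIM gene at least 2-fold higher, against 0.412% of all genes, and 0 were 2-fold lower, against 0.446%. At 1.5-fold 3 were higher, against 2.15% of all genes, and 1 was lower, against 3.63%. Besides TRIM31 the higher ones were TRIM38 at 0.97 and TRIM52, a short RING protein, at 0.75. The lower one was TRIM28 at -0.60, close to the threshold. TRIM56, a ligase of antiviral defence, had 0.47, TRIM15 0.45 and TRIM16 0.44. At the low end TRIM47 had -0.39, TRIM41 -0.38 and TRIM13, a ligase of the endoplasmic reticulum membrane, -0.36.

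One gene set the spread of the family in that pair. With TRIM31 the standard deviation over the 60 genes was 0.35, and over the other 59 it was 0.27, against 0.28 for all genes. The share of genes 1.5-fold apart was 6.67% with TRIM31 and 5.08% without it, against 5.79% of all genes.

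In the MYU pair 0 of 60 TRIM genes were 2-fold apart, against 0.0608% of all genes higher and 0.0945% lower. At 1.5-fold the count was also 0, against 0.668% higher and 1.21% lower. Since 1.88% of all genes were 1.5-fold apart, a count of 0 among 60 genes says little. TRIM28 had the highest value, 0.55, opposite in sign to the -1.47 it had with CTNNB1 siRNA and the -0.60 with MYC siRNA. TRIM15 followed at 0.27 and TRIM21 at 0.24. The lowest were TRIM16 at -0.43, TRIM66 at -0.39 and TRIM38 at -0.28. TRIM16 and TRIM38 had values above 0 in the other pairs.

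Some members had unlike values with CTNNB1 and MYC siRNA, which are given side by side because the control titles of these pairs carry the same number and may share RNA. TRIM25 had 1.04 with CTNNB1 siRNA and -0.27 with MYC siRNA. TRIM52 had -0.23 and 0.75 in that order, TRIM44 -0.48 and 0.35, and TRIM32 -0.88 and 0.14. These differences between pairs were not tested.

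The members were then ordered by class, that is, by what follows the tripartite motif. In the class with nothing further (C-V), 7 of 8 genes were measured: TRIM31, TRIM40, TRIM52, TRIM56, TRIM74, TRIM61 and TRIM8. Its medians were 0.02 with CTNNB1 siRNA, 0.26 with MYC siRNA and 0.13 with MYU siRNA. In the MYC pair 2 of the 7 were 1.5-fold higher, TRIM31 and TRIM52, against 2.15% of all genes. In the same pair TRIM31 had 1.81, TRIM52 0.75, TRIM56 0.47, TRIM74 0.26, TRIM40 0.24, TRIM8 -0.05 and TRIM61 -0.05. TRIM31 was thus the highest of its class there, but it had been picked with its high value known.

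The largest class (C-IV), which ends in a PRY-SPRY domain that binds substrates, had 31 of 39 genes measured, with medians of -0.01, 0.03 and 0.03. TRIM15, TRIM25 and TRIM38 were its members past 1.5-fold with CTNNB1 siRNA (9.68%, against 16.2% of all genes). With MYC siRNA TRIM38 was (3.23%, against 5.79%), so the class lay below the background in both pairs. Below 0 with CTNNB1 and MYC siRNA were 7236 and 7312 of all 14812 genes. So were all 3 genes of the chromatin class (C-VI), which ends in a PHD finger and a bromodomain. These were TRIM28, TRIM24 and TRIM33, a partner of SMAD4. TRIM24 had -0.20 in the MYC pair, and TRIM33 had -0.24 with CTNNB1, -0.25 with MYC and -0.18 with MYU siRNA.

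Classes of few members held the rest of the low values. TRIM37, TRIM59, TRIM13 and TRIM45, the single or paired members, had a median of -0.63 with CTNNB1 siRNA, where TRIM13 stood at -0.50 and TRIM45 at -0.04. Of the NHL class, known for RNA binding and neuronal roles, TRIM32 had -0.88, TRIM2 -0.22 and TRIM3 0.46. The RING-less genes had a median of 0.05, with TRIM29 at 0.75 and TRIM44 at -0.48. In the MYU pair 4 of these 5 were below 0 and TRIM29 was at 0, with a median of -0.17. Of all 14812 genes 7149 were below 0 in that pair, and so few RING-less genes say little. The classes C-I to C-III, with a COS box that binds microtubules, had values from -0.14 (TRIM54) to 0.51 (TRIM36) in the CTNNB1 pair. With MYC siRNA they ran from -0.17 (TRIM54) to 0.07 (TRIM55), and TRIM9, TRIM46 and TRIM67 had -0.03, -0.01 and -0.06.

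**Figure D3:**
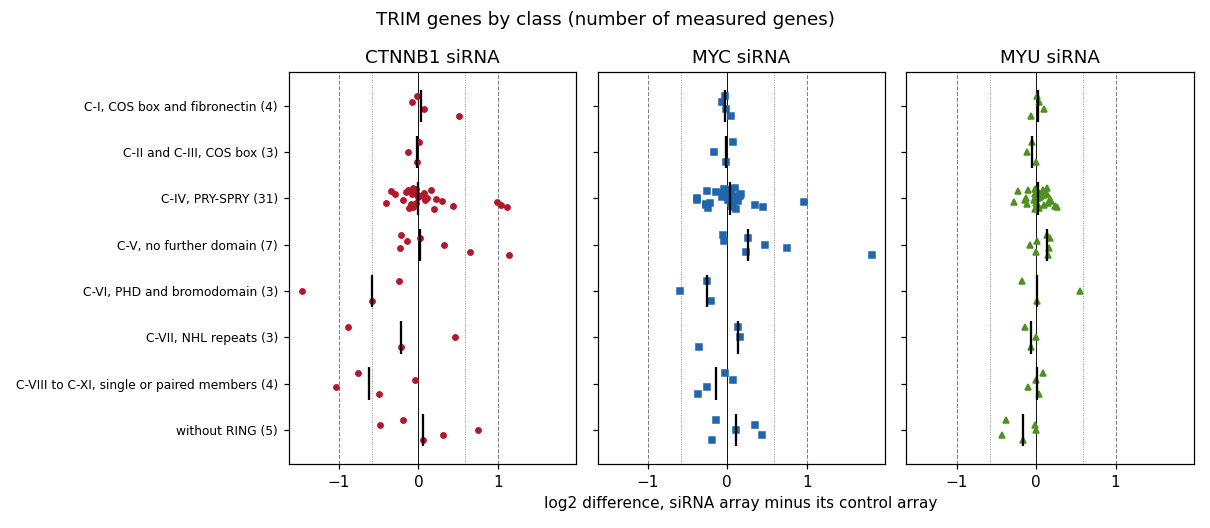
Log2 difference, siRNA array minus its control array, of the TRIM genes by class in the 3 pairs, with 1 point per gene and a bar at the class median. Dashed lines mark 2-fold and dotted lines 1.5-fold; the class median of the 3 chromatin genes is -0.58 with CTNNB1 siRNA, and TRIM31 is the point at 1.81 with MYC siRNA.

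Genes of striated muscle in this family served as a check on noise. TRIM54, TRIM55 and TRIM72, the measured muscle genes, had values between -0.17 and 0.13 over the 3 pairs. TRIM42, TRIM60 and TRIM67 had values between -0.08 and 0.04, but they were no planned list and were picked with their values known. TRIM43, TRIM43B, TRIM49, TRIM49B, TRIM64, TRIM64B, TRIM64C, TRIM74 and TRIM16 have near-identical copies, so their values may mix genes. TRIM43B had 0.22 and 0.17 in the CTNNB1 and MYU pairs, which shows the size of value such genes can have here. In each pair most members lay within 0.25 of 0: 38 of 60 genes with CTNNB1 siRNA, 41 with MYC siRNA and 55 with MYU siRNA. The same held for most of all 14812 genes, with 9724, 11303 and 12503 in the same order.

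TRIM31 lies in the MHC region of chromosome 6 beside other TRIM genes, so its measured neighbours were followed. With CTNNB1 siRNA, RNF39, the RING gene on one side, had 0.52, and on the other side TRIM40 had 0.64, TRIM10, an erythroid gene, 0.20, TRIM15 1.11 and TRIM26 -0.09. With MYC siRNA the same genes had 0.13, 0.24, 0.10, 0.45 and -0.27, while TRIM31 itself had 1.81. Further out, POLR1H, an RNA polymerase I subunit gene, had -0.40, -0.23 and 0.23 in the 3 pairs, and the non-coding genes HCG4, HCG4B, HCG9 and HCG17 had values from -0.03 to 0.18 in all 3. High values thus did not fill the region, and the next genes differed from TRIM31 by more in the MYC than in the CTNNB1 pair.

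**Figure D4:**
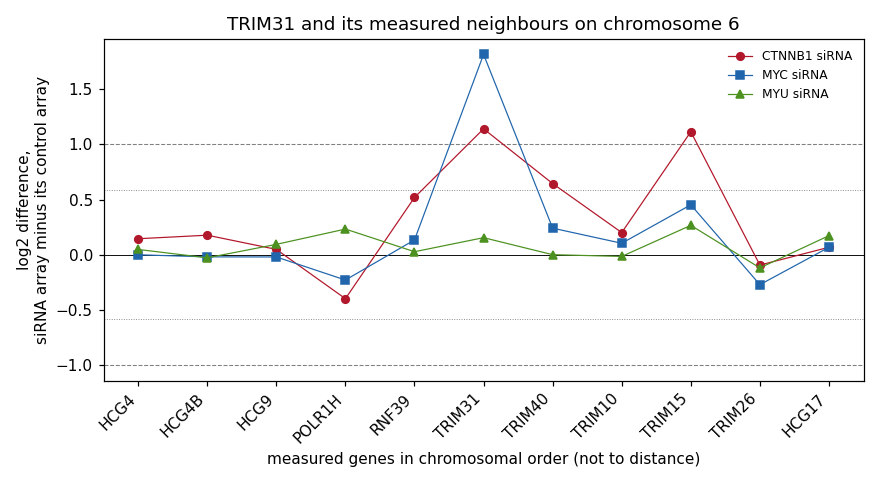
Log2 difference, siRNA array minus its control array, of TRIM31 and the 5 nearest measured genes on either side on chromosome 6, in chromosomal order and not to distance, with 1 line per pair to guide the eye. TRIM31 and TRIM15 reach 1.14 and 1.11 with CTNNB1 siRNA, and 1.81 and 0.45 with MYC siRNA.

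Of 8 TRIM genes listed on the short arm of chromosome 6, 7 were measured, with TRIM27 and TRIM38 farther from TRIM31 than the others. In the CTNNB1 pair 4 of the 7 were at least 1.5-fold higher, against 6.44% of all genes. These were TRIM31, TRIM15, TRIM38 and TRIM40, and TRIM40 was not among them at its probe set closest to 0. The median of the 7 was 0.64. In the MYC pair 2 were 1.5-fold higher, TRIM31 and TRIM38, against 2.15% of all genes, and in the MYU pair 0, against 0.668%. The medians of the 7 in these pairs were 0.24 and 0.00. TRIM27, a gene of chromatin and endosomes, had -0.41, -0.22 and 0.00. The share of genes is not a result about the region, since TRIM31 led to its choice.

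RefSeq promoter windows were found for 45 of the 60 TRIM genes, 61 windows in all because some genes have several starts. The interferon motif was in 8 windows (13.1%), against 3.02% of all 35116 windows of the same length. The 8 genes were TRIM2, TRIM5, TRIM14, TRIM16, TRIM26, TRIM44, TRIM64C and TRIM69. None of them was 1.5-fold apart in any pair, with values from -0.48 to 0.31 with CTNNB1 siRNA. The E-box was in 3 windows (4.92%, against 6.34% of all), those of TRIM25, TRIM46 and TRIM66, whose values with MYC siRNA were -0.27, -0.01 and -0.14. CTTTGAT was in 1 window, that of TRIM69 (1.64%, against 2.26% of all), with 0.16 in the CTNNB1 pair. Of the genes that hold a motif, TRIM25 was the only one past 1.5-fold in any pair. Among all genes 16.2%, 5.79% and 1.88% were 1.5-fold apart in the CTNNB1, MYC and MYU pairs. With so few genes that hold a motif, these counts say little.

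Genes known to be induced by interferon were described as a list, of which 8 of 9 were measured. Their medians were 0.19 with CTNNB1 siRNA, 0.11 with MYC siRNA and -0.04 with MYU siRNA. With CTNNB1 siRNA TRIM25 and TRIM38 were 1.5-fold higher, against 6.44% of all genes, and with MYC siRNA TRIM38 was, against 2.15%. TRIM22, which acts against viral transcription, had -0.07 and 0.34 in those pairs. TRIM5, the restriction factor against retroviral capsids, had 0.01 and 0.15, TRIM14, an adaptor at MAVS, 0.05 and -0.20, and TRIM26 -0.09 and -0.27. TRIM proteins under other names lay close to 0 with CTNNB1 siRNA, with PML, the scaffold of nuclear bodies, at -0.01, MID1 at 0.04, MID2 at 0.07, MEFV at -0.05, TRIML1 at 0.02 and TRIML2 at -0.06. With MYC siRNA MID2 had 0.38, and with MYU siRNA PML had 0.30 and MID1 -0.33.

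The partners of TRIM proteins in nucleic acid sensing were measured for 12 of 19 genes. MAVS, the mitochondrial adaptor, was at least 2-fold higher with CTNNB1 siRNA (1.14), as was ISG15, a ubiquitin-like modifier, at 1.04. They had 0.50 and 0.46 with MYC siRNA. RIGI, the sensor that TRIM25 modifies, had 0.31, 0.39 and 0.31 in the 3 pairs, and the adaptor gene TRAF3 was 1.5-fold lower with MYC siRNA (-0.66). IRF7 had 0.56, 0.19 and -0.24 in the 3 pairs, and IRF9 0.38, 0.09 and -0.24. TBK1, IRF3, STING1, CGAS, IFIH1 and DHX58 had values from -0.24 (IRF3) to 0.24 (STING1), both with MYC siRNA. The medians of the list were 0.16, 0.16 and -0.13. The genes of E2 enzymes were taken by the symbol UBE2, which also brought in pseudogenes such as UBE2MP1 and UBE2Q2P1. Of these 27 genes, 4 were 1.5-fold lower (14.8%, against 9.80% of all genes) and 0 higher (against 6.44%) with CTNNB1 siRNA, with a median of -0.07. In all, 16.2% of all genes were 1.5-fold apart in that pair, so the UBE2 genes lay near the background. UBE2T, the E2 of the Fanconi pathway, had -1.57, -0.75 and -0.64 in the 3 pairs, and UBE2G2, an E2 of the endoplasmic reticulum, -1.13, -0.80 and -0.04.

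Other ligase families were set beside the TRIM genes. Past 2-fold with CTNNB1 siRNA were 5 of 60 TRIM genes (8.33%), 1 of 67 RNF genes (1.49%) and 1 of 57 F-box genes (1.75%), against 6.94% of all genes. Past 1.5-fold were 10 TRIM genes (16.7%), 5 RNF genes (7.46%) and 5 F-box genes (8.77%), against 16.2% of all genes. The TRIM shares were thus near those of all genes, and the RNF and F-box shares were below them. None of the RNF and F-box genes was 2-fold higher in that pair. Their extremes were RNF43, a Wnt feedback ligase, at -1.48, with RNF103 next in size at 0.89, and FBXO5, an inhibitor of the anaphase-promoting complex, at -1.42, close to TRIM28 at -1.47, with FBXO45 next at -0.78. With MYC siRNA FBXL17 was 2-fold higher at 1.09, and 0 RNF genes were 2-fold apart. These counts were not tested against each other.

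**Figure D5:**
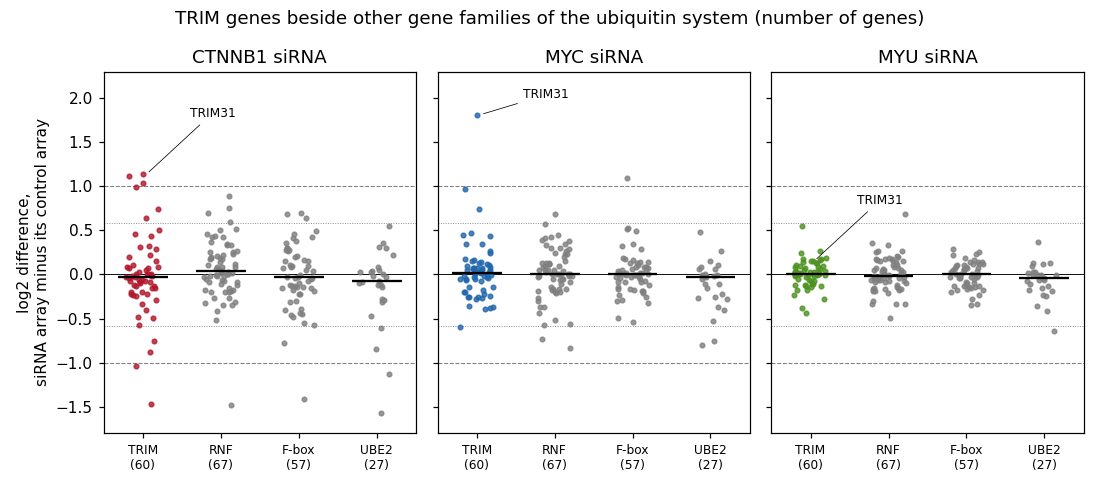
Log2 difference, siRNA array minus its control array, of TRIM, RNF, F-box and UBE2 genes in the 3 pairs, with 1 point per gene, shifted sideways at random for view, and a bar at the family median. Dashed lines mark 2-fold and dotted lines 1.5-fold; with MYC siRNA TRIM31 at 1.81 lies above FBXL17 at 1.09, the highest gene of the other families.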

How the data were processed

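Total RNA of 6 LS180 samples was labelled with biotin and hybridised to Affymetrix arrays, per the labels' protocols. The deposited table holds log2 values of 44629 probe sets, centred by the authors within each pair, which shows in that each pair sums to 0 within 1e-06. No source used here gives the log base, background correction, normalization or summarisation.

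The platform's annotation names 15835 probe sets, which gave 14812 genes, and the 28794 others were not used. All identifiers matched the gene table of GRCh38.p14. That table has 77 TRIM symbols, of which 17, such as TRIM6, TRIM23, TRIM34, TRIM39, TRIM63 and TRIM71, were not analysed here. The difference of each pair was averaged over a gene's probe sets and counted at 2-fold and 1.5-fold. No test was run, since every group has 1 array, and the number of arrays limits the precision. The members and lists were chosen with earlier results of these data known. Genes named are TRIM31, every TRIM gene past 1.5-fold, the 3 highest and 3 lowest per pair, the 2 largest of each list and all members of lists of up to 12 genes, shown by range where near 0; others were named after their values were seen. Olfactory and taste receptor genes, the planned yardstick, were listed with 1 gene only, and keratin-associated protein genes were used instead, chosen after seeing the data. Planned protein comparisons were not made. The code was tested on simulated data. Python 3.11.15, numpy 2.4.6, pandas 2.3.3 and matplotlib 3.10.9 were used.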

Additional observations from a re-analysis of the deposited data

How the results depend on the processing

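No paired analysis was possible because each group has 1 array and the pairs are already formed by centring. For the same reason no array could be left out, and the filter on low values was not run because the table holds no levels. Centring every array on its median took TRIM24 past 1.5-fold with CTNNB1 siRNA, at -0.59 in place of -0.58, so 5 TRIM genes in place of 4 were counted lower there; it changed no other count of TRIM genes at 2-fold or 1.5-fold and moved no TRIM value by more than the standard deviation of the yardstick genes. All 60 TRIM genes are protein-coding, so that choice changed nothing. The fold threshold sets the number of genes 1.5-fold or 2-fold apart: at 1.5-fold 10 were counted in place of 5 with CTNNB1 siRNA, 4 in place of 1 with MYC siRNA and 0 in place of 0 with MYU siRNA. Counting probe sets in place of genes gave 14 at least 2-fold higher in place of 3 and 21 at least 1.5-fold higher in place of 6 with CTNNB1 siRNA, and 5 in place of 1 and 7 in place of 3 with MYC siRNA, since TRIM31, TRIM15 and TRIM40 have 5, 8 and 8 probe sets. With each gene represented by the probe set closest to 0, TRIM31 had 1.06, 1.75 and 0.13, and TRIM15 had 0.30 with MYC siRNA in place of 0.45. TRIM40 had 0.52 with CTNNB1 siRNA in place of 0.64 and fell within 1.5-fold, so 5 TRIM genes in place of 6 were counted higher in that pair. TRIM27 had -0.26 and -0.07 with CTNNB1 and MYC siRNA, in place of -0.41 and -0.22. In the MYU pair this choice moved the median of the leukocyte markers from 0.48 to 0.14 and that of the muscle marker from -0.02 to 0.11. The cause was not tested. No result changed sign while past 1.5-fold. Signal over background is not held, so how far dim probe sets limit the values is unknown.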

Other observations

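Chromosome 11 holds the largest number of measured TRIM genes, 14, against 7 on chromosome 6. They had medians of 0.00 with CTNNB1 siRNA, 0.04 with MYC siRNA and 0.03 with MYU siRNA. Of these genes 1 was 1.5-fold apart in any pair, TRIM29 with CTNNB1 siRNA (0.75), where 16.2% of all genes were. Their lowest values were -0.48 for TRIM44 with CTNNB1 siRNA, -0.14 for TRIM64C with MYC siRNA and -0.39 for TRIM66 with MYU siRNA. On chromosome 17 the 5 measured genes were spread widely with CTNNB1 siRNA, from -1.03 for TRIM37 to 1.04 for TRIM25, and with MYC siRNA from -0.39 for TRIM47 to 0.44 for TRIM16.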
